A study of Mus musculus with 6 samples.

Results

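The genes described here are the chemokines and the chemokine receptors of the mouse, measured in whole liver. They were taken by symbol alone: every gene whose name begins with Ccl, Cxcl, Cx3cl, Xcl, Ccr, Cxcr, Cx3cr or Xcr followed by a number. This gave 52 of the 25102 genes in the table, namely 33 ligands, 17 receptors and 2 pseudogenes of Ccl19, with no filter on level. Among the ligands, Cxcl11 is annotated in GENCODE as a polymorphic pseudogene, and no functional Cxcl11 protein is known from C57BL/6 mice. The samples were 6 livers of male C57BL/6J mice, 3 control and 3 given diethylnitrosamine and carbon tetrachloride (DEN+CCl4). The mice were 2 weeks old at the start. For the treated group, 1 injection of DEN into the peritoneal cavity (1 mg/kg) was followed some 6 weeks on by CCl4 (0.2 mL/kg), given 2 times weekly for up to 14 weeks. What the controls were injected with is not stated, nor is it stated if tumour, tumour-free liver or a mix was sampled. Replicate numbers are the sole mark of separate animals, so p-values measure only the spread between these samples.

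Chemokines are small secreted proteins that draw leukocytes along a gradient. Their names follow the spacing of the first cysteines (CC, CXC, CX3C or a single C), and each is read by receptors that span the membrane and signal through Gi proteins. In liver, hepatocytes, Kupffer cells (the resident macrophages), stellate cells and sinusoidal endothelium all make them after injury, and the receptors sit mostly on the leukocytes that arrive. Many ligand genes are switched on by NF-kB or by interferon through short elements ahead of their start sites, while others, such as Cxcl12, are made constantly. DEN is a carcinogen that hepatocytes activate into a DNA-alkylating agent, and CCl4 injures hepatocytes after activation by cytochrome P450.

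The promoters of 5 CXC ligands are shown because they carry elements by which NF-kB and interferon are known to act on this family. Promoters of 300 bases, 250 before to 50 after a start site, came from RefSeq on GRCm38.p6, where 37 of the 52 symbols were found. The letters GGAATTTCC, a core of the NF-kB site that reads GGAAATTCC on the other strand, were in 0.317% of all 32851 promoters, on either strand, and in those of 5 of the 37 genes: Cxcl1, Cxcl2, Cxcl3, Cxcl10 and Ccr3. The letters GAAANNGAA, a core of the interferon-stimulated response element, were in 8.56% of all promoters, on either strand, and in those of 8 of the 37 genes, among them Cxcl9 and Cxcl10. The 2 motifs did not overlap each other in the stretches printed. A match is a run of letters and not a measured binding site. The stretches, all from chromosome 5, run 5′ to 3′ on the gene's own strand with the matches in capitals, and the genes shown were chosen after their values were seen.
Cxcl1: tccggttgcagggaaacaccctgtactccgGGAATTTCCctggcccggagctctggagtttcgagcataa
Cxcl2: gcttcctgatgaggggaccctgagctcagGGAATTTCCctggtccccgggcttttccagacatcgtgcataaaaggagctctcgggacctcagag
Cxcl3: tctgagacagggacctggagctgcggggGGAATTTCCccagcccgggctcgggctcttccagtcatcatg
Cxcl9: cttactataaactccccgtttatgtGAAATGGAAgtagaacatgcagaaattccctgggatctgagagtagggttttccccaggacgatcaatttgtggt
Cxcl10: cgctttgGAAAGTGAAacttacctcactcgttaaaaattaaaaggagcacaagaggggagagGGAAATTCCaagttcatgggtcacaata

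The Cxcl1 stretch is chr5:90891145-90891214 on the plus strand, and its match begins 70 bases ahead of the start site. The Cxcl2 stretch is chr5:90903774-90903868 (plus strand, match at 96 bases), and the Cxcl3 stretch is chr5:90786001-90786070 (plus strand, match at 72 bases). The Cxcl9 stretch is chr5:92328180-92328279 on the minus strand, with the interferon element at 175 bases. The Cxcl10 stretch is chr5:92349020-92349109 on the minus strand, with the interferon element at 213 bases and the NF-kB letters at 158 bases.

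Levels are given as FPKM, that is, fragments per length of a gene and per total of the library, so that levels of different genes can be compared. The table gives no counts and thus no depth. DEN+CCl4 replicate 3 stood apart from the other 5 libraries. Mitochondrially encoded genes took 64.2% of its summed FPKM against 26.6% to 43.0% in the others, and the median gene tested stood at 1.19 FPKM in it against 3.43 to 4.46. Since FPKM divides by the total, counts of genes whose groups did not overlap are also given after median-ratio scaling, which brings the typical gene of all 6 libraries to one level. This moved the median log2 fold change of the 8528 genes tested from -0.27 to 0.01. Fewer cells of a type and less RNA per cell cannot be told apart in whole liver.

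Most chemokine ligands, 24 of 33, had a higher mean in the DEN+CCl4 livers, and the receptors were at low levels in both groups. In 10 of the 52 genes (19.2%) every DEN+CCl4 value lay above every control value, against 3.83% of the 24933 genes above 0 in at least 1 library. They were the ligands Ccl2, Ccl3, Ccl4, Ccl5, Ccl7, Cxcl2, Cxcl10 and Cxcl16 and the receptors Ccr1 and Ccr2. Only the receptor Cxcr6 had every treated value below every control value, 1 of 52 against 4.06% of all genes. After median-ratio scaling the same 10 genes were still separated and Cx3cl1, Cxcl1 and Cxcr4 joined them, so 13 genes (25.0%) lay higher against 7.68% of all genes. None lay lower after scaling, against 4.63% of all genes. With mitochondrial genes left out instead, 11 genes (21.2%) lay higher against 5.20% of all genes. There Cx3cl1 joined the 10, while Cxcl1 and Cxcr4 still overlapped.

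No single gene among them passed the test across all genes. The test was limma on log2(FPKM + 1) with Benjamini-Hochberg adjustment over 8528 genes, and only 13 of the 52 had the mean of at least 1 FPKM that it required. Of the 8528 genes 0.833% were called higher and 0.645% lower at an adjusted p under 0.05, and 0 of the 13 were called in either direction. The smallest adjusted p among the 13 was 0.288, for Ccl5, and 3 of them (Ccl5, Cxcl1 and Cxcl9) had an unadjusted p under 0.05. Without the filter, 11 of the 52 were higher at an unadjusted p under 0.05 against 2.17% of 24933 genes, and 1 was lower against 2.28%. For a single gene the exact permutation test of 3 against 3 cannot give less than 0.1, so every separated gene below has that p and none can reach 0.05.

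**Figure D1:**
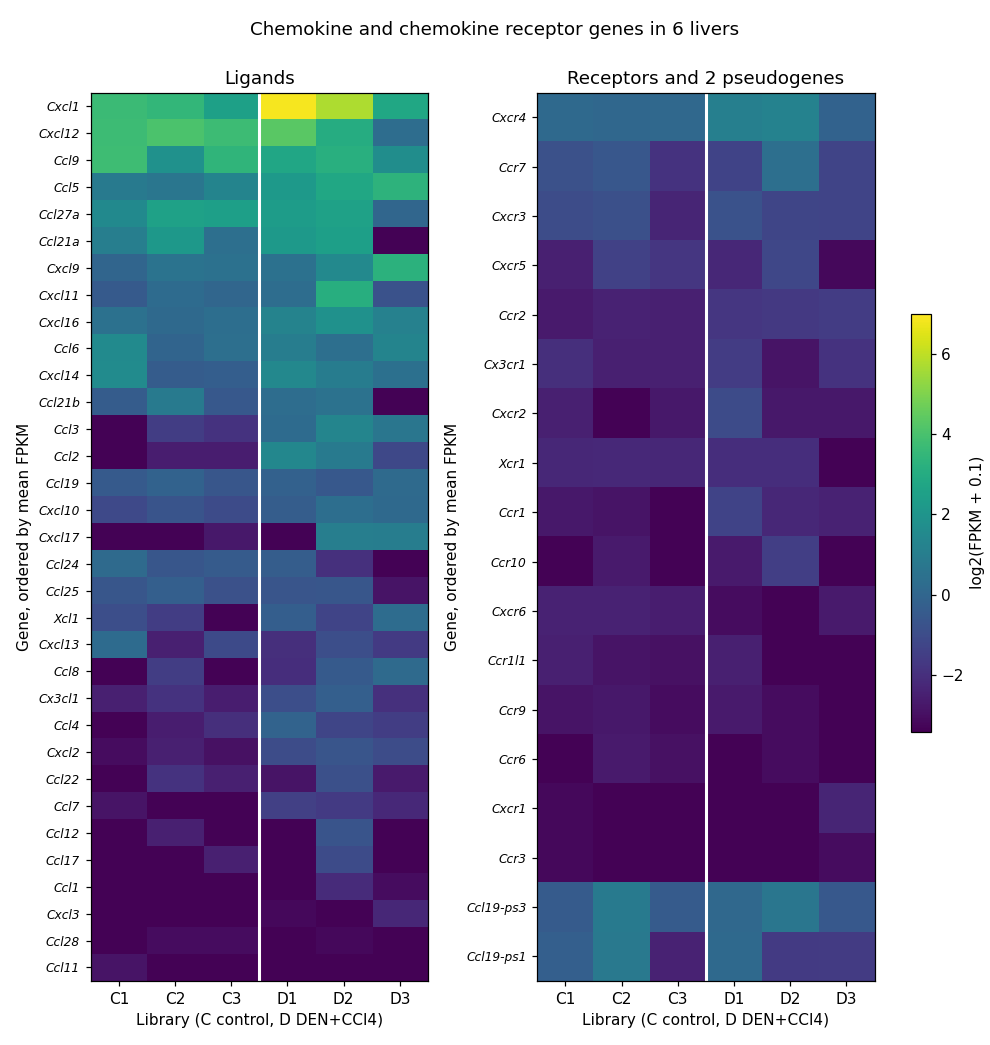
Level of each chemokine ligand (left) and of 16 receptors and the 2 Ccl19 pseudogenes (right) in the 3 control (C) and 3 DEN+CCl4 (D) livers, as log2(FPKM + 0.1), genes ordered by mean. Cxcl1 reaches 116.58 FPKM in D1, and no receptor shown exceeds the 2.19 FPKM of Cxcr4 in D2.

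Of the neutrophil-attracting ligands, Cxcl1 reached the highest level of any gene of the family, while Cxcl2 and Cxcl3 stayed low. Cxcl1, also called KC, calls neutrophils through Cxcr2 and lies on chromosome 5 at 90891241 to 90893115. Its level was 12.84, 11.23 and 5.62 FPKM in the 3 controls and 116.58, 51.91 and 6.93 in the 3 DEN+CCl4 livers. The first 2 treated livers were far above all controls, while the third lay within the control range. The group means were 9.90 ± 3.79 and 58.5 ± 55.1 FPKM (SD, n = 3 each), and the log2 fold change was 1.82 with a standard error of 0.84 (limma, adjusted p = 0.534). It was 0.98 without DEN+CCl4 replicate 1 and 2.92 without replicate 3. After median-ratio scaling DEN+CCl4 replicate 3 stood at 19.5 against 4.46 to 11.0 in the controls, so that the groups no longer overlapped. With mitochondrial genes left out instead, they still did.

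Cxcl2, the closest relative of Cxcl1 on the same chromosome, was at 0.02, 0.08 and 0.03 FPKM in the controls and at 0.41, 0.54 and 0.40 after DEN+CCl4. All treated livers were above all controls, at similar levels in each. The fold between group means was 10.4, with a log2 fold change of 0.47 (standard error 0.09) on the log2(FPKM + 1) scale, which understates changes of low genes. Cxcl3, whose promoter carries the same NF-kB letters, was listed at 0 in every control and at 0.01, 0 and 0.11 FPKM in the treated livers. The 3 promoters printed above with these letters at 70 to 96 bases therefore belonged to genes with very different levels. Their receptor Cxcr2 was at 0.08, 0 and 0.05 FPKM in the controls and at 0.39, 0.05 and 0.05 after treatment. It overlapped between groups and was highest in the liver with the most Cxcl1. Cxcr1 did not exceed 0.10 FPKM anywhere.

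Ligands that attract monocytes through Ccr2 were close to 0 in every control liver. Ccl2, also called MCP-1, lies on chromosome 11 at 82035571 to 82037453. Its level was 0, 0.07 and 0.07 FPKM in the controls and 2.56, 1.75 and 0.35 in the treated livers. The lowest treated liver was still above the highest control, and the log2 fold change without the filter was 1.18 with a standard error of 0.37. Its neighbour Ccl7, a related Ccr2 ligand, was at 0.04, 0 and 0 FPKM in the controls and at 0.27, 0.22 and 0.12 after treatment. It was likewise higher in each treated liver, at a lower level than Ccl2 in all of them. Ccl12, also a Ccr2 ligand, and Ccl8, which attracts monocytes too, overlapped between groups, at 0 to 0.25 FPKM in controls and 0 to 1.05 in treated livers.

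Ccr2, the receptor of Ccl2, Ccl7 and Ccl12, was at 0.06, 0.09 and 0.08 FPKM in the controls and at 0.20, 0.21 and 0.24 after DEN+CCl4, a ratio of group means of 2.83. The treated values were close together and all above the controls. Summed, Ccl2, Ccl7 and Ccl12 gave 2.83, 2.48 and 0.47 FPKM in the treated livers against 0.04 to 0.15 FPKM in the controls. The liver with the least of these ligands thus did not have the least Ccr2.

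**Figure D2:**
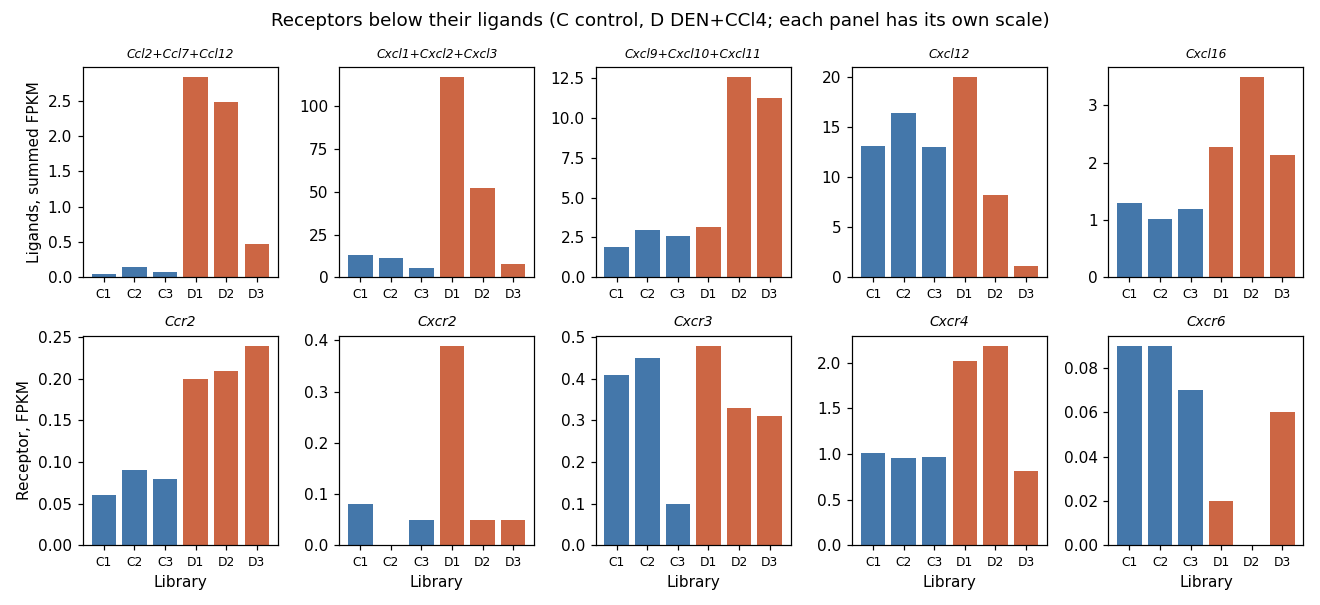
Summed FPKM of the ligands (upper row) above the FPKM of their receptor (lower row) for 5 pairs, with 1 bar per control (C) or DEN+CCl4 (D) library and a scale of its own for each panel. The Ccr2 ligands stand at 2.83, 2.48 and 0.47 FPKM in the treated livers against at most 0.15 in the controls, while Ccr2 itself stays between 0.06 and 0.24 FPKM.

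Inflammatory CC ligands of macrophages and lymphocytes split into 2 patterns. Ccl3, Ccl4 and Ccl5 were higher in every treated liver, while Ccl6 and Ccl9, ligands of Ccr1, overlapped. Ccl5, also called RANTES and made chiefly by T and NK cells, lies on chromosome 11 at 83525778 to 83530518. Its level was 1.77, 1.49 and 2.34 FPKM in the controls and 4.55, 6.83 and 10.03 after DEN+CCl4. All treated livers were above all controls, and replicate 3 was the highest of them. The means were 1.87 ± 0.433 and 7.14 ± 2.75 FPKM (SD, n = 3 each), 3.82-fold apart, with a log2 fold change of 1.46 and a standard error of 0.57 (limma, adjusted p = 0.288).

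Ccl3, also called MIP-1 alpha, was at 0, 0.25 and 0.17 FPKM in the controls and at 1.09, 2.40 and 1.51 in the treated livers. The groups were well apart, and the log2 fold change without the filter was 1.20 with a standard error of 0.28. Ccl4, or MIP-1 beta, which lies beside Ccl3 on chromosome 11, was at 0, 0.07 and 0.15 FPKM in the controls and at 0.85, 0.33 and 0.25 after treatment. Its treated values were lower than those of Ccl3 in each liver but did not reach the control range.

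Ccr1, which binds Ccl3 and Ccl5, was at 0.05, 0.04 and 0 FPKM in the controls and at 0.30, 0.11 and 0.09 after DEN+CCl4, all above the controls. Ccl9, the most abundant CC ligand of the controls, was at 13.55, 3.58 and 10.48 FPKM there and at 6.61, 8.73 and 3.18 after treatment, with wide overlap (log2 fold change -0.44). Ccl6 was at 2.91, 0.86 and 1.23 FPKM in the controls and at 1.90, 1.20 and 2.36 in the treated livers, also with overlap.

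Cxcl9, Cxcl10 and Cxcl11 are interferon-inducible genes whose proteins, where made, attract activated T cells through Cxcr3. All 3 had higher means after treatment, but only Cxcl10 lay above the controls in every treated liver. Cxcl9 was at 0.89, 1.37 and 1.28 FPKM in the controls and at 1.30, 2.74 and 9.75 in the treated livers. DEN+CCl4 replicate 1 lay inside the control range and replicate 3 far above it, and the log2 fold change was 1.06 with a standard error of 0.49 (limma, adjusted p = 0.539). Without replicate 3 it was 0.43. Cxcl10, whose promoter carried both motifs, was at 0.37, 0.51 and 0.39 FPKM in the controls and at 0.70, 1.18 and 1.02 after treatment. Its group means were 0.423 ± 0.0757 and 0.967 ± 0.244 FPKM (SD, n = 3 each), a ratio of 2.28.

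Cxcl11 was at 0.64, 1.09 and 0.92 FPKM in the controls and at 1.13, 8.63 and 0.49 in the treated livers. Only DEN+CCl4 replicate 2 was far above the controls, and without it the log2 fold change went from 0.74 to -0.07. Exons of Cxcl10 and Cxcl11 overlap those of Art3 and Gm2673 respectively, and whether the counting used strand is not given in the sources used here. Cxcr3, their receptor, was at 0.41, 0.45 and 0.10 FPKM in the controls and at 0.48, 0.33 and 0.31 after treatment, with overlap.

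**Figure D3:**
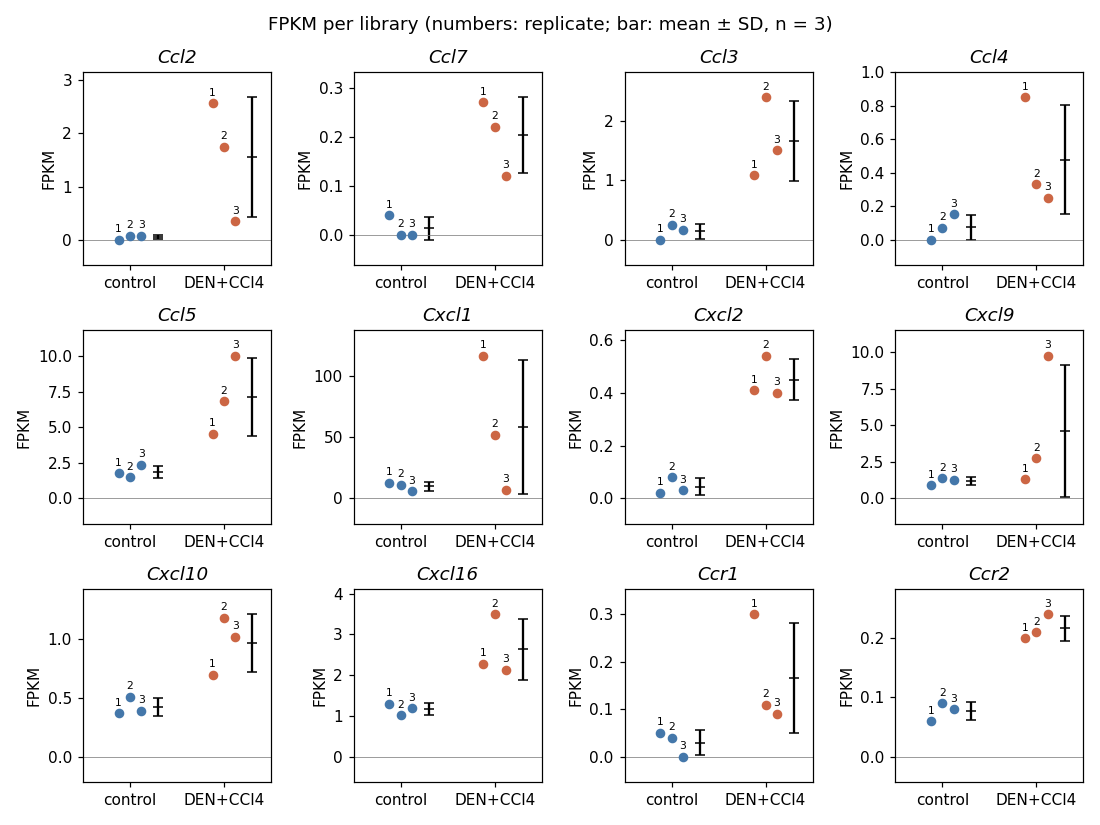
FPKM of 10 ligands and 2 receptors in each liver, with 1 numbered point per replicate and the mean ± SD of the group beside them (n = 3), each panel on its own scale. Ccl5 stands at 4.55 to 10.03 FPKM in the treated livers against 1.49 to 2.34 in the controls, while the Cxcl1 and Cxcl9 groups overlap by 1 treated liver each.

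Cxcl16 and Cx3cl1 are anchored in the membrane and hold leukocytes to the cells that display them. Cxcl16 was at 1.30, 1.02 and 1.19 FPKM in the controls and at 2.28, 3.49 and 2.14 in the treated livers. The groups were apart by far more than the spread among controls, 2.25-fold between means, with a log2 fold change of 0.73 and a standard error of 0.46 (limma, adjusted p = 0.869). Cxcl16 shares exon sequence with Zmynd15. Cxcr6, the receptor of Cxcl16 on T and NKT cells, went the other way at 0.09, 0.09 and 0.07 FPKM in the controls and 0.02, 0 and 0.06 after treatment. This was the one separation downward, and it was lost after median-ratio scaling, which put DEN+CCl4 replicate 3 at 0.168 against 0.056 to 0.078 in the controls.

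Cx3cl1, or fractalkine, was at 0.08, 0.17 and 0.07 FPKM in the controls and at 0.44, 0.74 and 0.16 in the treated livers. Only DEN+CCl4 replicate 3 fell within the control range, and after scaling it no longer did. Cx3cr1, its receptor on monocytes and macrophages, was at 0.08 to 0.15 FPKM in the controls and 0.04 to 0.24 in the treated livers, with overlap.

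Homeostatic ligands, which place cells in lymphoid tissue, stroma and epithelia without inflammation, are the last group of ligands. None of the 10 was separated between the groups, as deposited (3.83% of all genes upward) or after scaling (7.68%), a count near that background. The mean was higher after treatment in 4 and lower in 6. Cxcl12, also called SDF-1, lies on chromosome 6 at 117168535 to 117181367 and was the most abundant chemokine of the control livers. Its level was 13.07, 16.43 and 13.01 FPKM in the controls and 19.93, 8.23 and 1.16 after DEN+CCl4. The treated livers lay on both sides of a narrow control range, with means of 14.2 ± 1.96 and 9.77 ± 9.48 FPKM (SD, n = 3 each). The log2 fold change was -1.01 with a standard error of 0.74 (limma, adjusted p = 0.946). It was -1.76 without DEN+CCl4 replicate 1 and -0.12 without replicate 3. After scaling the treated livers stood at 15.6, 6.00 and 3.26 against 10.3 to 14.2, still on both sides.

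Cxcr4, the receptor of Cxcl12, was the only receptor to reach a mean of 1 FPKM in either group. It was at 1.01, 0.96 and 0.97 FPKM in the controls and at 2.02, 2.19 and 0.82 in the treated livers. The controls were nearly equal, replicates 1 and 2 of the treated group were near 2 FPKM, and replicate 3 was below all controls. After median-ratio scaling the treated livers stood at 1.58, 1.60 and 2.30 FPKM against 0.770 to 0.866 in the controls, so all were above. With mitochondrial genes left out instead, the groups still overlapped. The log2 fold change as deposited was 0.39 with a standard error of 0.42 (limma, adjusted p = 0.996). It was 0.24 without DEN+CCl4 replicate 2 and 0.65 without replicate 3.

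Ccl21a, which guides dendritic cells and T cells through Ccr7, was at 1.98, 4.29 and 1.20 FPKM in the controls and at 4.55, 5.46 and 0 after treatment. Ccl21b was 0 in the same treated liver, and reads of these nearly identical genes may have been divided between them in counting. Ccl27a was at 2.81, 5.83 and 5.42 FPKM in the controls and at 5.02, 5.83 and 0.92 in the treated livers. Cxcl12, Ccl21a and Ccl27a were thus lowest in DEN+CCl4 replicate 3, a library in which 51.6% of all genes lay below all controls as deposited. After scaling Ccl27a stood at 2.58 there, within the control range of 2.41 to 5.04. Ccl27a shares exon sequence with Il11ra1.

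Cxcl14, an epithelial and stromal ligand, was at 2.95, 0.68 and 0.72 FPKM in the controls and at 2.65, 1.83 and 1.25 after treatment, with overlap from control replicate 1 alone. Cxcl17, a mucosal ligand, was at 0, 0 and 0.05 FPKM in the controls and at 0, 1.95 and 1.92 in the treated livers. It was thus listed at 0 in the first treated liver and near 2 FPKM in the other 2. The Ccl19 pseudogene Ccl19-ps3 had the same mean of 1.02 FPKM in both groups.

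**Figure D4:**
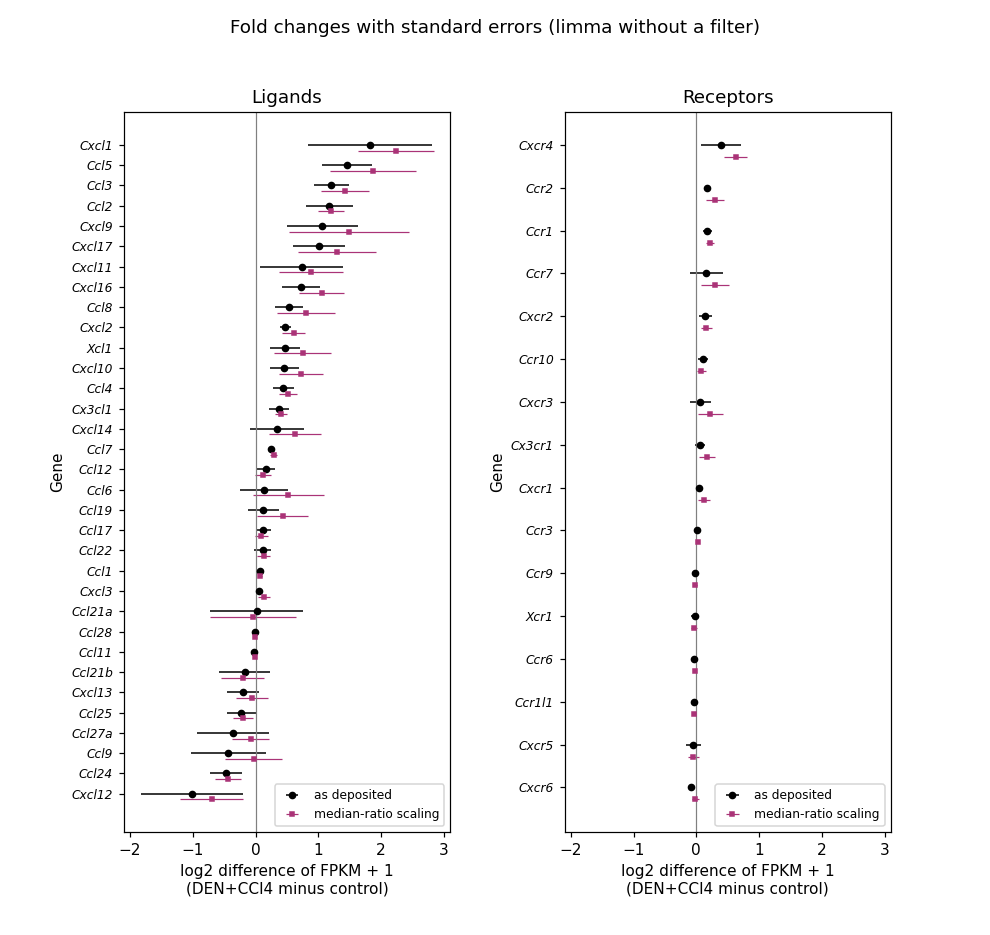
Log2 difference of FPKM + 1 between DEN+CCl4 and control for each ligand (left) and for 16 receptors (right), from limma without a filter, with standard errors, as deposited and after median-ratio scaling. Cxcl1 (1.82) and Ccl5 (1.46) lie at the top and Cxcl12 (-1.01) at the bottom, and every receptor shown lies between -0.08 and 0.39 as deposited.

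Set beside the receptors, the ligands stood at far higher levels. Summed over the 33 ligands, the level was 59.69, 53.67 and 47.16 FPKM in the controls and 177.04, 119.49 and 47.62 in the treated livers. Cxcl1 alone made up most of the excess in replicates 1 and 2, with 116.58 and 51.91 FPKM. Summed over the 17 receptors, it was 2.78, 2.95 and 1.96 FPKM in the controls and 4.50, 4.96 and 2.29 in the treated livers, so that DEN+CCl4 replicate 3 was within the control range in both sums. After scaling all treated livers were above all controls, at 138.7, 87.1 and 133.7 against 37.5 to 51.2 for ligands and at 3.53, 3.62 and 6.43 against 1.56 to 2.55 for receptors. Of the ligands 24 of 33 had a higher mean after treatment, and of the receptors 11 of 17. Separated upward were 8 ligands (24.2%) and 2 receptors (11.8%), against 3.83% of all genes. After scaling it was 10 ligands (30.3%) and 3 receptors (17.6%), against 7.68%.

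The median log2 fold change was 0.16 for ligands and 0.04 for receptors, beside -0.01 over all 24933 genes above 0. After scaling these were 0.40, 0.08 and 0.01. The log2(FPKM + 1) scale understates changes of low genes, and 5 of the 17 receptors and 2 of the 33 ligands stayed under 0.1 FPKM in every library. At a pseudocount of 0.1 FPKM the medians were 0.59 for ligands and 0.22 for receptors. The difference between ligands and receptors was not tested.

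By place, 14 of the genes lie on chromosome 11, which holds the main CC ligand cluster. Of these 12 had a higher mean after treatment and 6 were separated upward, namely Ccl2, Ccl3, Ccl4, Ccl5, Ccl7 and Cxcl16. Over all genes the share separated upward was 3.83%, and 7.68% after scaling. Chromosome 5, with the CXC cluster, holds 8, of which Cxcl2 and Cxcl10 were separated, with Cxcl1 after scaling. The 6 genes of chromosome 4 (the Ccl19, Ccl21 and Ccl27 group) gave none, a count near the share of all genes. Neighbouring genes are not independent of each other.

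Taken one treated liver at a time, the counts varied with scaling most in replicate 3. In DEN+CCl4 replicates 1, 2 and 3 respectively 23, 26 and 20 of the 52 genes lay above all controls, against 26.8%, 44.0% and 10.3% of all genes. After scaling the counts were 20, 25 and 33, against 22.7%, 37.7% and 34.5%. In replicate 3 as deposited, 38.5% of the 52 genes thus lay above all controls in a library where few genes did. Without DEN+CCl4 replicate 3, 16 of the 52 (30.8%) were separated upward, but so were 16.6% of all genes.

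The wider chemokine system gave few calls in the same limma test. Among 32 genes of receptor signalling 4 were separated upward, against 3.83% of all genes, and 6 after scaling, against 7.68%. Downward it was 0, against 4.06%, and 1 after scaling, against 4.63%. Tested were 19 of the 32, and 1 was called higher, against 0.833% of all genes tested. This was Rgs2, which shortens G protein signals. It was at 0.40, 0.36 and 0.13 FPKM in the controls and at 0.44, 2.77 and 7.42 after treatment (log2 fold change 1.47, standard error 0.42, adjusted p = 0.039). DEN+CCl4 replicate 1 was barely above the controls. The call was lost in 13 of 15 other settings, over which the adjusted p ranged from 0.001 to 0.875, and it held without DEN+CCl4 replicate 1 and without replicate 2. Without replicate 3 limma called 0 of the 8528 genes (unadjusted p under 0.05: 522 upward, 139 downward), and with median-ratio scaling also 0 (468 and 446).

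Of 19 listed inducers of chemokines in the table, 12 were tested and none was called (1 higher at an unadjusted p under 0.05). Relb, an NF-kB subunit, was at 0.43, 0.68 and 0.31 FPKM in the controls and at 1.24, 1.72 and 1.51 in the treated livers, and Ltb, a lymphotoxin, was at 0.49 to 0.76 against 0.93 to 4.17. Both were separated upward, 2 of the 19 against 3.83% of all genes. After scaling 6 of the 19 were, against 7.68% of all genes, adding Tnf, Il1a, Nfkb2 and Tnfaip3. Of 9 genes that cleave ligands 2 were tested and none was called (1 lower at an unadjusted p under 0.05). Dpp4, which trims and inactivates several chemokines, was lower in every treated liver at 4.62, 1.54 and 0.39 FPKM against 6.01, 5.48 and 5.99 (limma, adjusted p = 0.374). It was the 1 of the 9 separated downward, against 4.06% of all genes as deposited and 4.63% after scaling. Separated upward was 1 of the 9, against 3.83%, and after scaling 2, against 7.68%. Mmp12, a macrophage metalloproteinase, was so at 0.24, 0.43 and 0.28 FPKM against 0.01, 0.01 and 0, and Mmp2 only after scaling.

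Ligands named outside the family rule were 4, of which 3 were tested and none called (0 at an unadjusted p under 0.05), with Mif and Rarres2 the most abundant. Pf4, the platelet ligand Cxcl4, was at 0.73, 1.25 and 0.16 FPKM in the controls and at 2.73, 1.99 and 0.97 after treatment. It was the 1 of the 4 separated, and only after scaling, against 7.68% of all genes upward. Of 8 atypical and chemokine-like receptors 1 was tested (Cd74) and none was called or separated. Ackr3, which takes up Cxcl12, was at 0.01 to 0.08 FPKM in the controls and 0 to 0.43 in the treated livers.

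Markers of leukocytes and other cells moved with the ligands in some lists and not in others, and their part in the chemokine results was not tested. The 9 neutrophil markers in the table summed to 2.82 to 8.77 FPKM in the controls and 9.28 to 25.35 in the treated livers, with no overlap as deposited. After scaling they overlapped, with 6.77 FPKM in DEN+CCl4 replicate 2 against up to 7.52 in the controls. S100a9, which overlapped between the groups, gave the largest part of the neutrophil sum in every library. Of the 9 markers 2 were separated upward, against 3.83% of all genes, and 3 after scaling, against 7.68%. Only 3 of the 9 were tested, and 1 of these, S100a8, was called higher, against 0.833% of all genes tested. S100a8 was at 0.76, 0.42 and 0.34 FPKM against 3.19, 1.38 and 8.96 (log2 fold change 1.63, standard error 0.46, limma, adjusted p = 0.034). That call too was lost in 13 of 15 other settings, with an adjusted p of 0.004 to 0.875 over them, and held without DEN+CCl4 replicate 1 or 2. The 16 T and NK cell markers summed to 2.90 to 3.74 FPKM in the controls and 5.46 to 6.51 in the treated livers. Only 1 of the 16, Nkg7, had the level to be tested, and it was not called. Separated upward were 5 of the 16, against 3.83% of all genes, including Cd8a at 0.10, 0.18 and 0.04 against 0.49, 0.91 and 0.70. After scaling it was also 5, against 7.68%. Cd4, Cd5, Ncr1 and Klrb1c had lower means after treatment, with overlap. The T and NK cell sums, to which Nkg7 gave the largest part in every library, moved in the same direction as Ccl5.

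Macrophage lists as a whole did not lie higher after treatment. The 7 Kupffer cell markers summed to 31.06 to 84.98 FPKM in the controls and 17.76 to 39.08 in the treated livers. None of the 5 tested was called. As deposited 3 were separated downward (Timd4, Marco and Cd163), against 4.06% of all genes, and after scaling 2 (Timd4 and Cd163), against 4.63%. The sums of the 11 monocyte and macrophage markers overlapped, at 13.52 to 42.31 and 18.33 to 35.66 FPKM. Only 3 of the 11 were tested, and none was called. Separated upward was 1 (Gpnmb), against 3.83% of all genes, and after scaling 2 (with Trem2), against 7.68%. Dendritic, B and plasma cell, endothelial, stellate and cholangiocyte marker sums also overlapped as deposited. After scaling only the B and plasma cell sums among these were apart, at 7.76 to 9.81 FPKM in the controls and 18.7 to 26.8 in the treated livers. Ighm gave the largest part of them in every library. Of the 8 markers of that list 2 were separated upward after scaling, against 7.68% of all genes. The stellate cell and fibroblast sum, to which Ecm1 gave the largest part in every library, hid single genes that did not overlap. Of the 11 markers of that list 5 were separated upward (Col1a1, Col1a2, Col3a1, Acta2 and Lum), against 3.83% of all genes, and 8 after scaling, against 7.68%. Col1a1, a chain of fibrillar collagen, was at 0.99, 0.63 and 0.74 FPKM in the controls and at 3.38, 7.25 and 2.06 in the treated livers (log2 fold change 1.43, limma, adjusted p = 0.123). None of the 7 stellate markers tested was called, and 3 were higher at an unadjusted p under 0.05. Lrat went the other way, the 1 of the 11 separated downward as deposited, against 4.06% of all genes, and not separated after scaling. The 10 hepatocyte markers were all tested, at sums of 47522 to 77686 FPKM in the controls and 17699 to 81171 in the treated livers, with none called (2 lower at an unadjusted p under 0.05). No list had a marker at 0 in every library.

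**Figure D5:**
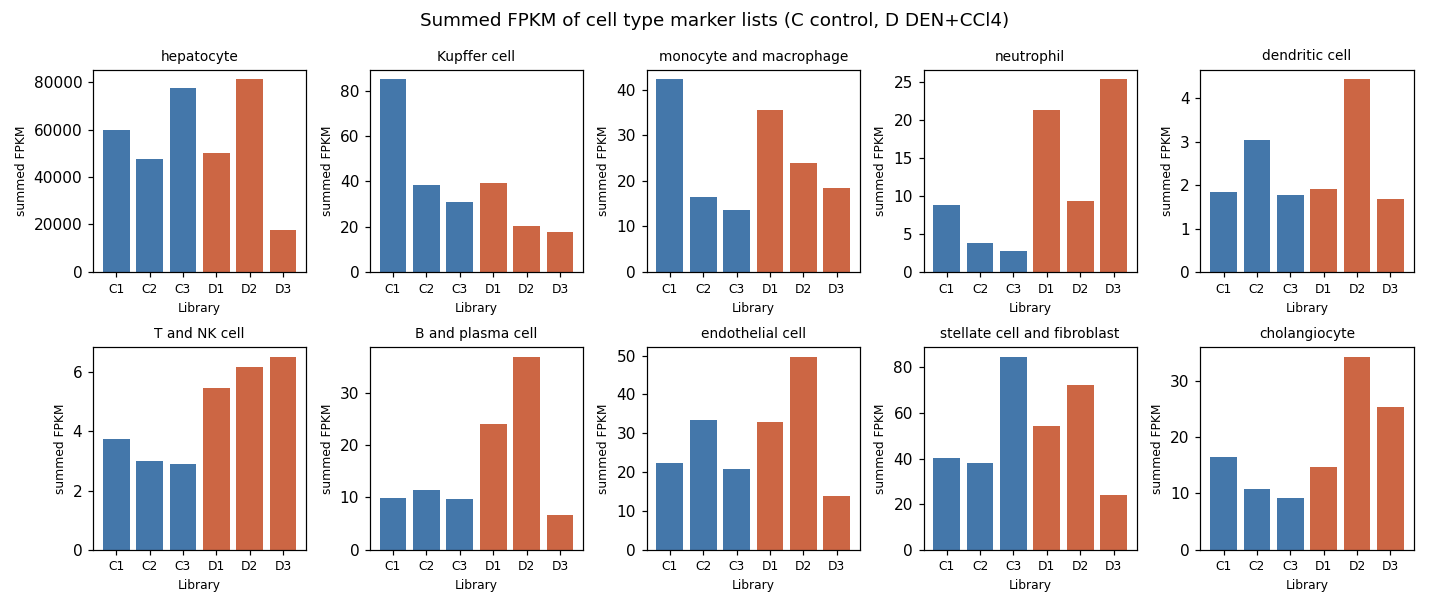
Summed FPKM of each cell type's markers in each library, with 1 bar per control (C) or DEN+CCl4 (D) liver and a scale of its own for each panel. The neutrophil sums (2.82 to 8.77 against 9.28 to 25.35 FPKM) and the T and NK cell sums (2.90 to 3.74 against 5.46 to 6.51 FPKM) do not overlap between the groups.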

How the data were processed

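The libraries were made from poly(A) RNA, starting with 5 ug per sample at a RIN over 7 (labels' protocols). The authors deposited FPKM with 2 decimals, 1 column per library. The submitters' processing notes name HISAT, StringTie and GRCm38, with versions and strand setting not given in the sources used. Gene positions came from GENCODE M21 on GRCm38.

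The limma 3.58.1 test in R 4.3.3 was run on log2(FPKM + 1), two-sided with an intensity trend and no covariates, for the 8528 genes whose mean across libraries was 1 FPKM or more. Benjamini-Hochberg adjustment covered all of them, with a threshold of 0.05. Single genes also had an exact permutation test. Low genes were described from the same fit without the filter. The script was tested on simulated data. Genes and lists were chosen with earlier results of these data known. Genes named had a mean of at least 1 FPKM in a group or separated groups and a mean of at least 0.1 FPKM, or were their ligand or receptor. Relb, Ltb, Tnf, Il1a, Nfkb2, Tnfaip3, Dpp4, Pf4, Ackr3, Cd8a, Gpnmb, Timd4, Marco, Cd163, Mmp12, Mmp2, Trem2, Ecm1, Lrat and the collagen genes, Acta2 and Lum were named after their values were seen. So were Ighm, Nkg7, Cd4, Cd5, Ncr1, Klrb1c and S100a9. The replicate numbers were not used to pair the samples in the main test. Alternatives were another pseudocount, filter and scaling, mitochondrial genes left out, no trend, a replicate block, and each library left out. Combinations of 2 of these were added after seeing the data. The values of 1 receptor gene are not reported here, though counts and sums over all genes of the family include it.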

Additional observations from a re-analysis of the deposited data

How the results depend on the processing

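In none of the 15 other settings was a chemokine or receptor gene called. The upward count of 10 separated genes ranged from 10 to 16 with 1 library left out, with 16 without DEN+CCl4 replicate 3, and the receptor count from 2 to 4. Leaving out a library eases separation for every gene, and the share of all genes ranged from 4.49% to 16.6% in these settings. The downward count of 1 went to 0 with median-ratio scaling and with mitochondrial genes left out, against 4.63% and 3.08% of all genes. It ranged from 1 to 4 with 1 library left out, against 4.34% to 13.2% of all genes. The 4 (7.69%) came without DEN+CCl4 replicate 1, where the share of all genes was 13.2%. The ligand median of 0.16 was 0.59 at a pseudocount of 0.1 FPKM (also with a filter at 0.2), 0.40 with median-ratio scaling, and 0.148 to 0.297 with 1 library left out. The receptor median of 0.04 was 0.222, 0.0812 and 0.00235 to 0.0458 in the same settings. Without a filter, the downward count of 1 at an unadjusted p under 0.05 was 0 with scaling and 2 without DEN+CCl4 replicate 1, against 3.05% and 5.57% of all genes. The cause was not tested. The log2 fold change of Ccl21a, Ccl27a, Ccl6, Cxcl11 and Ccl19-ps3, none called, changed sign in some settings.

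Same-numbered samples had correlations of deviations of 0.0716, 0.416 and -0.146. Differently numbered samples were not compared, so these values cannot show whether the numbers pair the samples. With the replicate number as a block 0 of the genes were called and the adjusted p of Ccl5 was 0.586, while the calls over all genes went from 126 to 94. Over all genes the calls numbered 0 to 379 across settings. FPKM without counts leaves the depth behind each low value unknown.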
